A study of Drosophila melanogaster with 24 samples.

Results

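The juvenile hormone degradation genes are 5 of the 13922 protein-coding genes on the chromosome arms of *Drosophila melanogaster* in the Release 6 gene table: the esterase genes *Jhe* and *Jhedup*, and the epoxide hydrolase genes *Jheh1*, *Jheh2* and *Jheh3*. They were found by symbol, and all 5 are on arm 2R. The set was chosen by the function of its members after Cap-G values at these loci had been seen in the same tracks, so the values below describe the genes and no test was made on them.

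Juvenile hormone is a sesquiterpenoid made in the corpora allata of the ring gland, and in insects it keeps larval tissues from entering metamorphosis. It is inactivated by esterases, which cleave its methyl ester to give juvenile hormone acid, and by epoxide hydrolases, which open its epoxide to give juvenile hormone diol. The hormone acts through the bHLH-PAS receptors Met and Gce, and the zinc finger gene *Kr-h1* is its best known target. Cap-G is a subunit of condensin I, the complex that compacts chromosomes in mitosis, and is also found in the nuclei of neurons that no longer divide.

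Cap-G binding was profiled by Targeted DamID (TaDa), in which a Dam methylase fused to the protein of interest methylates GATC sites close to where that protein meets DNA, in the cells that carry a GAL4 driver. Brains came from larvae of the third instar, 30 per sample, with 2 Cap-G-Dam and 2 Dam-only samples for each of 3 drivers. Neural stem cells (NSCs) were reached with *wor-GAL4*; *tub-GAL80ts*, immature and mature neurons together with *elav-GAL4*; *tub-GAL80ts*, and mature neurons with *tub-GAL80ts*; *nSyb-GAL4*. Each driver was crossed to *UAS-Cap-G-Dam*, which carries the isoform Cap-G-PF with Dam at its C-terminus, or to the control *tub-GAL80ts*; *UAS-LT3-NDam*, and larvae raised at 18 °C were moved to 29 °C for 24 hr to switch on Dam. All groups therefore expressed a Dam transgene, and the elav neurons include cells of the nSyb neurons' kind.

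The deposited tracks give log2 (Cap-G-Dam/Dam-only) for 373710 GATC fragments with a median length of 196 bp, as 1 average per cell type. Neither depth nor the spread between replicates can be had from an average, so values below carry no SD and differences between tracks no p-value. The elav track was the widest, with an SD over fragments of 0.46 against 0.30 in NSCs and 0.36 in nSyb neurons, and for this reason each gene is also given by its percentile among protein-coding genes of its own track. A ratio below 0 can come from little Cap-G-Dam or from much Dam-only methylation, and a ratio above 0 from the reverse. These cannot be told apart, and the same holds for differences between tracks. The ratio reports binding relative to Dam-only methylation and not expression, so the identity of the cells could not be checked on marker genes.

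*Jhe*, the juvenile hormone esterase gene, was among the genes with the highest Cap-G ratio in NSCs and in nSyb neurons and stood lower in elav neurons. Over the gene (2R from 16119793 to 16122773, Release 6) the mean log2 ratio was 0.78 in NSCs, 0.47 with *elav-GAL4* and 0.74 with *nSyb-GAL4*. These values lay at percentiles 99.9, 92.4 and 99.6. Only 2 other protein-coding genes were at least as high as *Jhe* in all 3 tracks, and *Jhe* was the single degradation gene among the 328 genes (2.36% of protein-coding genes) at or above percentile 90 in all 3.

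**Figure D1:**
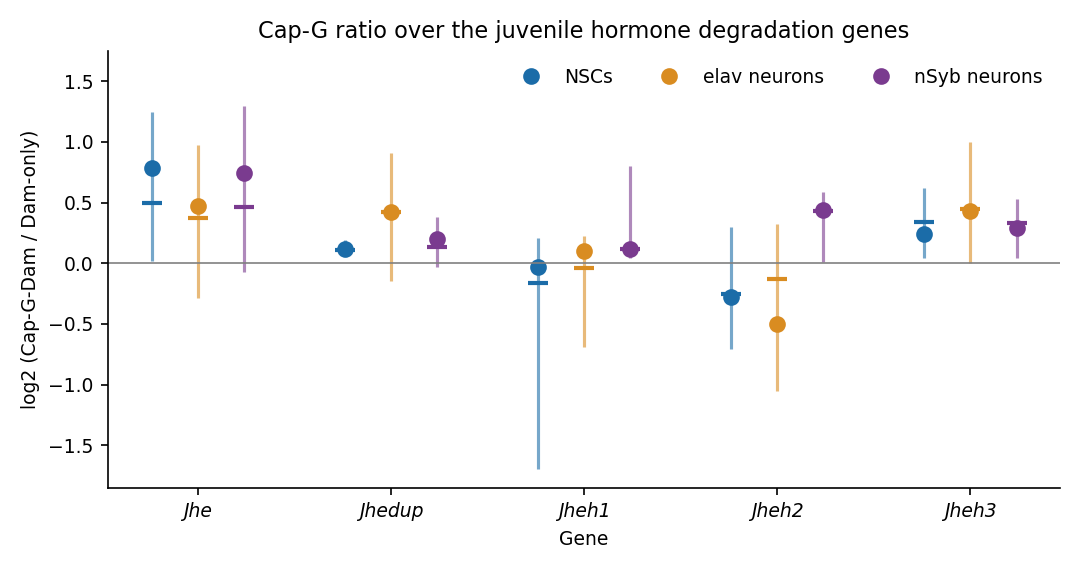
Mean log2 (Cap-G-Dam/Dam-only) over each juvenile hormone degradation gene (filled circles) in NSCs, elav neurons and nSyb neurons, with the median fragment (short bar) and the lowest to highest fragment of the gene (line), which is spread along the gene and not replicate error. *Jhe* is highest in NSCs at 0.78 and nSyb neurons at 0.74, and *Jheh2* is below 0 in NSCs and elav neurons and at 0.44 in nSyb neurons.

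The signal of *Jhe* covered most of the gene. Of its 21 fragments, 21 were above 0 in the stem cells, 19 for elav and 19 for nSyb neurons. They ran from 0.02 through a median of 0.50 to 1.25 in NSCs, from -0.28 through 0.37 to 0.98 in elav neurons and from -0.07 through 0.47 to 1.30 in nSyb neurons. The ranges of the tracks overlap widely, and the same parts of the gene were high in NSCs and nSyb neurons. At 1 of them, the fragment from 16120390 to 16120640, the ratio was 1.24 for NSCs, 0.51 for elav and 1.27 for nSyb neurons. A further high fragment, from 16122272 to 16122817 at the other end of the gene, held 1.25, 0.90 and 1.30. Between these peaks, at 16121582 to 16121855, elav neurons dropped to 0.08 while NSCs were at 0.90 and nSyb neurons at 0.68. At 16121361 to 16121386, between the same peaks, the ratio was below 0 in elav neurons (-0.28) and nSyb neurons (-0.07) and at 0.33 in NSCs.

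*Jhedup*, a tandem copy of the esterase gene whose own role is less well known, lies next to *Jhe* (16117109 to 16119149) and had lower ratios in each averaged track. Its mean log2 ratio was 0.12 in NSCs, 0.42 with *elav-GAL4* and 0.20 with *nSyb-GAL4*, at percentiles 77.3, 89.8 and 78.8. The order of the tracks was the opposite of that at *Jhe*, with elav neurons highest. All 10 of its fragments were above 0 in NSCs but none went past 0.19, whereas 8 of 10 were above 0 in elav neurons and reached 0.91. In nSyb neurons 8 of 10 were above 0, up to 0.38.

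The space of 643 bp between *Jhedup* and *Jhe* was higher than *Jhedup* itself in each track, with 0.32 in the stem cells, 0.81 for elav and 0.42 for nSyb neurons. Within it the fragment from 16119649 to 16119791, directly beside *Jhe*, held 0.51, 1.07 and 0.43. In elav neurons that was higher than any fragment inside *Jhe*. The gene table gives no strand, so whether this space lies before or after either gene was not determined.

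On the lower-coordinate side the signal ran on into *Asph*, which encodes an aspartyl beta-hydroxylase, with 0.47 for NSCs, 0.57 for elav and 0.46 for nSyb neurons (percentiles 98.9, 95.9 and 96.4). The stretch of 12443 bp from *Asph* to *Jhe* averaged 0.48, 0.53 and 0.48. Among the 10757 consecutive windows of that length on the arms, none was as high in all 3 tracks. The stretch was picked after its values had been seen, whereas the windows were laid end to end without regard to peaks. This count therefore does not show that the stretch is unique. The stretch ended sharply past *Jhe*. There the fragment from 16122817 to 16123127 still held 1.09 in NSCs and 1.23 in elav neurons, and the following one only 0.01, 0.10 and 0.20. The 5 kb on that side of *Jhe* averaged 0.09 in NSCs, -0.04 with *elav-GAL4* and 0.11 with *nSyb-GAL4*, against 0.33, 0.41 and 0.37 on the side of *Jhedup*.

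**Figure D2:**
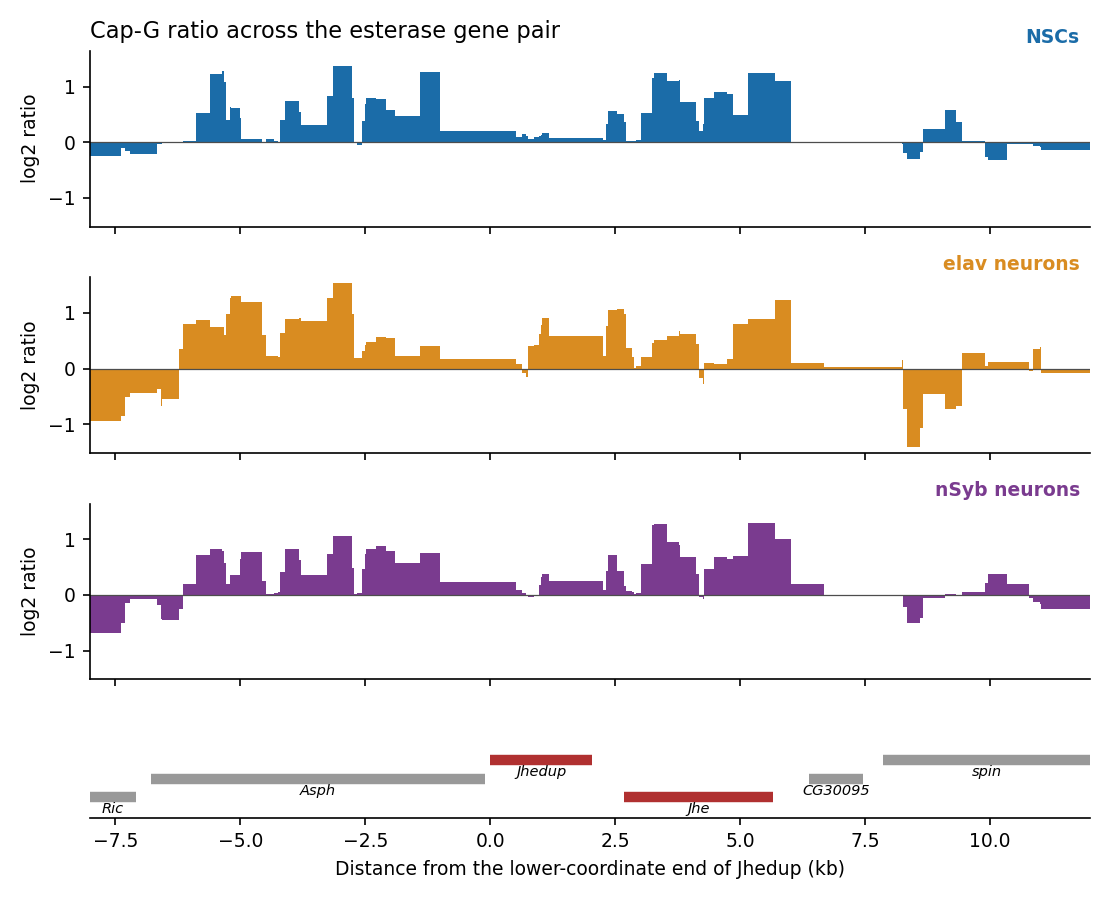
Log2 (Cap-G-Dam/Dam-only) of each GATC fragment (filled steps) against distance in kb from the lower-coordinate end of *Jhedup*, for NSCs, elav neurons and nSyb neurons on a common axis, with the genes below (degradation genes in red). The high stretch starts in *Asph* and ends just past *Jhe*, where the ratio drops from 1.09 to 0.01 in NSCs. Over *Jhedup* the mean ratio is lower than over *Asph* or *Jhe* in each track. *Jhedup* is at 0.12 for NSCs, 0.42 for elav and 0.20 for nSyb neurons.

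*Jheh2* showed the widest change of the 5 genes between cell types. Over the gene (18855767 to 18858245) NSCs had a mean log2 ratio of -0.28 (percentile 11.1), elav neurons of -0.50 (percentile 6.65) and nSyb neurons of 0.44 (percentile 95.7). Its 15 fragments ran from -0.70 through a median of -0.26 to 0.30 in NSCs and from -1.06 through -0.13 to 0.32 in elav neurons. In nSyb neurons they ran from 0.01 through 0.43 to 0.59. Thus 4 fragments were above 0 in the stem cells, 3 for elav and 15 for nSyb neurons. The largest gap lay in the higher-coordinate part of the gene, where the fragment from 18857392 to 18857746 was at -0.70 for NSCs, -1.02 for elav and 0.58 for nSyb neurons.

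*Jheh1*, on the lower-coordinate side of *Jheh2* (18853434 to 18855087), was close to the middle of all genes. Its mean log2 ratio was -0.03 in NSCs, 0.10 with *elav-GAL4* and 0.11 with *nSyb-GAL4*, at percentiles 41.6, 57.4 and 67.6. Of its 7 fragments 1 was above 0 in the stem cells, 3 for elav and 7 for nSyb neurons. The most extreme values over *Jheh1* came from its edge, the fragment from 18853385 to 18853459, at -1.69 for NSCs, -0.69 for elav and 0.80 for nSyb neurons.

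That edge belongs to a site just outside *Jheh1* at which NSCs and nSyb neurons differed by more than in any fragment of the 5 genes. The fragment from 18853026 to 18853385, most of it between *CG18190* and *Jheh1*, had a log2 ratio of -2.50 in NSCs, -1.01 with *elav-GAL4* and 1.07 with *nSyb-GAL4*. In NSCs it was the 74th lowest of 373710 fragments. The difference of 3.56 between nSyb neurons and NSCs was the 3rd highest of all fragments. *CG18190* itself, the gene on the other side of this site, moved in the same direction, with -0.46 in the stem cells, -0.15 for elav and 0.30 for nSyb neurons.

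*Jheh3* (18860375 to 18862078) was above 0 in all 9 of its fragments in each track. The mean log2 ratio was 0.24 for NSCs, 0.43 for elav and 0.29 for nSyb neurons, at percentiles 91.7, 90.5 and 86.9. It was the only hydrolase gene with a mean above 0 in all 3 tracks. The 2129 bp between *Jheh2* and *Jheh3* were near 0, with -0.04 in NSCs, 0.01 with *elav-GAL4* and 0.05 with *nSyb-GAL4*.

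Neighbouring hydrolase genes therefore carried different patterns within 8645 bp. Of the 35 fragments from *Jheh1* to *Jheh3*, 20 (57.1%) were below 0 in NSCs and above 0 in nSyb neurons, against 19.1% of all fragments. From *Jhedup* to *Jhe* none of the 35 fragments did so, and 29 (82.9%) were above 0 in all 3 tracks, against 25.3% of all fragments. Adjacent fragments are not independent, since their values correlate at r = 0.75 in the stem cells, 0.79 for elav and 0.77 for nSyb neurons over the whole genome. An antisense RNA gene, *asRNA:CR46485* (18853372 to 18861263), overlaps all 3 hydrolase genes, and DamID does not distinguish strands, so its signal cannot be separated from theirs.

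**Figure D3:**
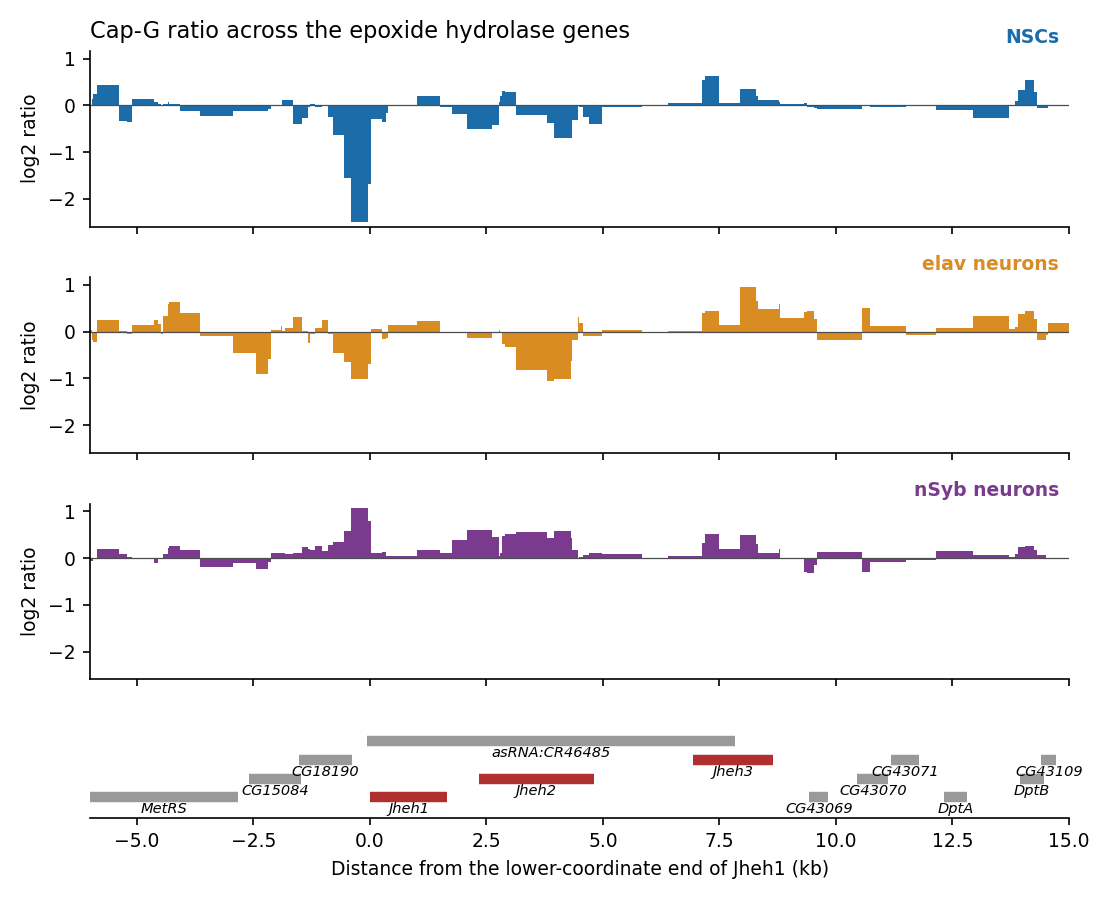
Log2 (Cap-G-Dam/Dam-only) of each GATC fragment (filled steps) against distance in kb from the lower-coordinate end of *Jheh1*, for NSCs, elav neurons and nSyb neurons on a common axis, with the genes below (degradation genes in red). The site beside *Jheh1* is at -2.50 in NSCs and 1.07 in nSyb neurons. The mean of *Jheh2* is above 0 in nSyb neurons only, and *Jheh3* is above 0 in all 3.

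As a group, 3 of the 5 degradation genes had a mean above 0 in NSCs (*Jhe*, *Jhedup* and *Jheh3*), 4 in elav neurons (all but *Jheh2*) and 5 in nSyb neurons. *Jheh1* was close enough to 0 for its sign to turn with the way a gene is averaged: in elav neurons it was at -0.04 by the unweighted median and at -0.14 with 5 kb added on each side, which left 3 genes above 0, and in NSCs at 0.02 over fragments of 200 to 2000 bp, which gave 4. With 5 kb added, *Jheh3* was below 0 in NSCs, which left 2. Of all protein-coding genes 48.5% were above 0 for NSCs, 57.7% for elav and 49.5% for nSyb neurons. The median of the 5 was 0.12, 0.42 and 0.29, against -0.001, 0.05 and 0.00 over all protein-coding genes. *Jhe*, *Jhedup* and *Jheh3* were above 0 in all 3 tracks, as were 31.9% of protein-coding genes. From highest to lowest the genes stood in NSCs as *Jhe*, *Jheh3*, *Jhedup*, *Jheh1* and *Jheh2*. In elav neurons *Jhe*, *Jheh3* and *Jhedup* were close together, followed by *Jheh1* and *Jheh2*. In nSyb neurons *Jheh2* moved up to follow *Jhe*, ahead of *Jheh3*, *Jhedup* and *Jheh1*. Without replicate values it cannot be said which neighbours in these orders differ.

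Bound regions, runs of at least 2 fragments at a false discovery rate (FDR) of 0.01%, were called on the averaged tracks, and a gene was called bound by a region that touched it or was at most 5 kb away without another gene between them. *Jhe* was bound in NSCs and in nSyb neurons, and no degradation gene was bound in elav neurons. Among all protein-coding genes 7.84% were bound for NSCs, 10.5% for elav and 9.39% for nSyb neurons. The region at *Jhe* ran from 16120136 to 16123127 in NSCs, with 15 fragments at a mean of 0.91, and from 16120136 to 16121288 in nSyb neurons, with 7 fragments at 0.85. The gene *Asph* held regions in all 3 tracks, and *Jhedup* was not counted as bound because the nearby regions were separated from it by bases of *Asph* or *Jhe*. At an FDR of 1%, *Jhe* and *Jhedup* were bound in NSCs, *Jhe*, *Jhedup* and *Jheh3* in elav neurons, and *Jhe*, *Jhedup*, *Jheh1* and *Jheh2* in nSyb neurons. The shares of all protein-coding genes at this level were 24%, 25.3% and 26%. *Jheh2* was thus bound in nSyb neurons only at the looser level, by a region from 18856259 to 18857773 with a mean of 0.53, and *Jheh3* in elav neurons only, by a region from 18861371 to 18862240 with a mean of 0.69.

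Between tracks, genes were compared on values scaled by the median and the median absolute deviation of all protein-coding genes, and a difference of 1 or more was counted as a shift. From NSCs to elav neurons *Jhe* was lower by this rule, with a scaled difference of -3.26, and no degradation gene was higher. For *Jhe* the log2 difference was -0.31. Part of the scaled difference came from the scaled spread of genes, 0.17 in NSCs and 0.28 in elav neurons. Of all protein-coding genes 16.3% were higher and 12.1% lower. From elav to nSyb neurons *Jheh2* (3.68) and *Jhe* (1.40) were higher and none was lower, against 12.5% higher and 12.5% lower. From NSCs to nSyb neurons *Jheh2* was higher (3.41) and *Jhe* lower (-1.86), against 14.1% higher and 11.1% lower. The last value for *Jhe* came with nearly equal log2 ratios of 0.78 and 0.74, because the scaled spread of genes was 0.17 in NSCs and 0.26 in nSyb neurons. The rise of *Jheh2* was the 60th highest of 13922 from elav to nSyb neurons and the 140th highest from NSCs to nSyb neurons. A pattern of -1 or less in NSCs and elav neurons with 1 or more in nSyb neurons was shared by 41 protein-coding genes (0.29%), *Jheh2* among them.

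The other juvenile hormone genes lay around the middle of all genes by their median. Of 11 listed genes of synthesis, reception and response, 5 were above 0 in NSCs, 7 with *elav-GAL4* and 4 with *nSyb-GAL4*, with median percentiles of 46.2, 55.5 and 47.0. Among synthesis genes *Hmgs*, which encodes HMG-CoA synthase, was highest in each track (0.14, 0.31 and 0.17). *Fpps*, for farnesyl pyrophosphate synthase, was lowest in NSCs (-0.07) and nSyb neurons (-0.04), and *jhamt*, for the methyltransferase that completes the hormone, was lowest in elav neurons (-0.22). The receptor gene *gce* was at 0.07 in the stem cells, 0.44 for elav and -0.14 for nSyb neurons, so it was the highest receptor in elav neurons and the lowest in nSyb neurons. Its paralogue *Met* was highest in NSCs (0.08) and nSyb neurons (-0.01) and lowest in elav neurons (0.02), and the coactivator gene *tai* was lowest in NSCs (-0.06). *Kr-h1* was the lowest response gene everywhere, with -0.36, -0.46 and -0.33 (percentiles 7.34, 7.69 and 12.4). *RNaseZ*, which is listed under its synonym *JhI-1* for induction by the hormone, was highest in NSCs (-0.01) and elav neurons (0.53), and *JhI-26* in nSyb neurons (0.16). Shifts of the 11 genes were 2 higher and 1 lower from NSCs to elav neurons, 0 higher and 2 lower from elav to nSyb neurons, and 1 higher and 0 lower from NSCs to nSyb neurons. The shares of all protein-coding genes in these comparisons lay between 11.1% and 16.3%. Bound were *Hmgs* in all 3 tracks, *tai* in NSCs and elav neurons, and *gce* in elav neurons, which made 2, 3 and 1 of the 11 genes, against 7.84%, 10.5% and 9.39% of protein-coding genes.

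**Figure D4:**
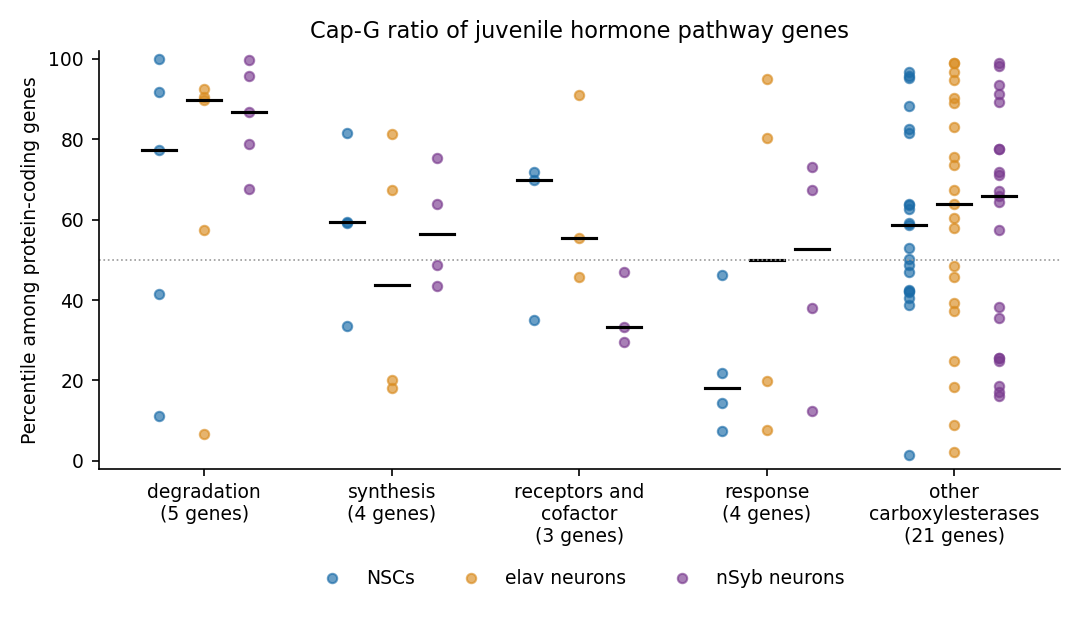
Percentile of each gene (points) among protein-coding genes of its track for the 5 degradation genes, 4 synthesis genes, 3 receptor and cofactor genes, 4 response genes and 21 other carboxylesterase genes, with the median of each list (black bar) and the middle of all genes (dotted line). The degradation genes have medians of 77.3, 89.8 and 86.9, with *Jheh2* near the bottom in NSCs and elav neurons.

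*Jhe* and *Jhedup* belong to the carboxylesterase family, of which 21 other members were listed. Of these, 12 were above 0 for NSCs, 15 for elav and 13 for nSyb neurons, with median percentiles of 58.7, 64.0 and 66.0. None of them was as high as *Jhe* in NSCs, where *Est-P*, next to the esterase gene *Est-6*, led with 0.35. In elav neurons *alpha-Est6*, of the alpha-esterase cluster, led with 0.80. It and other genes of that cluster stood above *Jhe* there, and in nSyb neurons *alpha-Est6* led the list with 0.62. The adhesion protein gene *Nrt*, whose extracellular part resembles an esterase, was lowest in NSCs (-0.70) and elav neurons (-0.83), and the neuroligin gene *Nlg3* was lowest in nSyb neurons (-0.27). Of the 21 genes 4 were bound for NSCs, 7 for elav and 6 for nSyb neurons, where the shares of all protein-coding genes were 7.84%, 10.5% and 9.39%. All those bound in nSyb neurons, and most of those in elav neurons, lie in the alpha-esterase cluster. Some of them had ratios near the middle of all genes. In nSyb neurons the unbound *alpha-Est8* and *alpha-Est9* stand between the bound *alpha-Est7* and *alpha-Est10*. Bound in NSCs were *alpha-Est6* and *alpha-Est10* of this cluster, and *Est-P* and *Nlg2* outside it. The elav and nSyb counts are thus mostly counts of genes at 1 locus, and an excess across the family was not tested.

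Within 20 kb of the esterase genes, only *Asph* was at or above percentile 90 in a track. On that side *Rho1*, for a small GTPase, was at -0.55 in the stem cells, -0.13 for elav and -0.14 for nSyb neurons, and *Ric*, for a Ras-like GTPase, at -0.14, -0.25 and -0.31. Farther out, *CG8414* was at 0.30 in elav neurons, and *mRpL34* and *Dg* stayed within 0.1 of 0 except *Dg* in nSyb neurons (-0.18). On the side of *Jhe*, *CG30095* was near 0 (0.00, 0.04 and 0.06) although its position within 5 kb of the *Jhe* region counted it as bound in NSCs. *spin*, which encodes the lysosomal transporter Spinster, was at -0.01, -0.08 and -0.14, and *Got1* and *CG30094* were between -0.10 and 0.19.

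Around the hydrolase genes, *CG15084* (-0.09, -0.22 and -0.01), *MetRS*, for methionyl-tRNA synthetase (-0.0024, 0.13 and 0.01), *CG15099* (0.13, 0.34 and 0.05), *CG15083* (0.03, 0.43 and -0.04) and *CG15098* (-0.13, -0.02 and -0.05) did not show the rise in nSyb neurons seen at *CG18190* and *Jheh2*. On the side of *Jheh3*, *CG43069*, *CG43070*, *CG43071* and *CG43109* lay between -0.09 and 0.16. The antimicrobial peptide genes *DptA* and *DptB* followed, with -0.11, 0.08 and 0.15 over the 1 fragment of *DptA* and 0.29, 0.23 and 0.18 over *DptB*, and the long gene *sano* was near 0 (0.02, 0.05 and 0.05).

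Likeness of pattern was measured as the distance between the 3 scaled values of a degradation gene and those of the 11521 protein-coding genes with at least 5 fragments that lie farther than 20 kb away. *PIG-Wb* was nearest to *Jhe* (distance 0.21), with 0.80 for NSCs, 0.42 for elav and 0.76 for nSyb neurons, and was the only gene within 0.5. *CG33159* (0.71) and *CG17681* (0.71) followed. *Jheh2* also had a single gene within 0.5, the G1 cyclin gene *CycE* (0.24), with -0.30, -0.48 and 0.39, followed by *CG30385* (0.60) and the homeobox gene *vnd* (0.66). The other patterns were common, with 336 genes within 0.5 of *Jhedup*, 497 of *Jheh1* and 226 of *Jheh3*. Among the nearest were *CG17930*, *M7BP* and *CG4267* for *Jhedup*, *CG12605*, *CG5510* and *CG9004* for *Jheh1*, and *brv2* and *Lsp1beta* for *Jheh3*. Among the 5 genes themselves the nearest pair was *Jhedup* and *Jheh3* (0.85), and the farthest *Jhe* and *Jheh2* (7.41).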

How the data were processed

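Targeted DamID of Cap-G was measured in 12 samples. The authors mapped reads with Bowtie2 (version not stated in the sources used here) to BDGP6, normalised Cap-G-Dam to Dam-only per GATC fragment and deposited the log2 ratios as 1 average per driver; their way of averaging was not stated. The 12 RNA-seq samples were not analysed here. Members and lists were chosen with earlier results of these data known. Gene values are means of fragments weighted by the bases inside the Release 6 span. Scaled values are distances from the median of protein-coding genes in units of 1.4826 median absolute deviations. Regions used quantiles 0.80, 0.85, 0.90, 0.95 and 0.99 as thresholds with a reimplemented caller, tested on simulated data; the study called peaks in each replicate. The FDR assumes independent fragments, which neighbours are not, so it is nominal. Named genes are the members, the highest and lowest of each list in a track, genes within 20 kb of a member, and the 3 nearest patterns per member, of which 1 gene is not reported here. Alternatives are given at the end. Python 3.11.15, numpy 2.4.6, pandas 2.3.3 and matplotlib 3.10.9 were used.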

Additional observations from a re-analysis of the deposited data

Results flagged for a closer look

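The mean log2 ratio of *Jheh2* was below 0 in NSCs (-0.28) and above 0 in nSyb neurons (0.44), a scaled difference of 3.41, so the same contrast pointed in opposite directions in these cell types. The difference was not tested. The direction in each replicate is not known from averaged tracks.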

How the results depend on the processing

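No paired analysis was possible because the deposited tracks are averages over replicates, and for the same reason no replicate could be left out. At an FDR of 1%, bound members rose from 1 to 2 in NSCs, from 0 to 3 in elav neurons and from 1 to 4 in nSyb neurons, and the other settings of the caller gave the counts reported. Of these settings, at least 4 fragments also left all bound protein-coding genes at 1091, 1460 and 1307. It therefore could not show a dependence on run length. With the unweighted median of fragments, 2 members (*Jheh1*, *Jheh2*) were higher and 2 (*Jhe*, *Jheh3*) lower from NSCs to elav neurons, and likewise 2 higher and 2 lower from NSCs to nSyb neurons. With 5 kb added on each side, 1 member (*Jheh1*) was higher and 2 (*Jhe*, *Jhedup*) lower from NSCs to elav neurons, and 3 (all hydrolase genes) were higher and 2 (both esterase genes) lower from NSCs to nSyb neurons. At that width the spans of neighbouring members overlap, so these calls share fragments and are not independent. *Jheh3* then turned to -0.074 in NSCs. All alternatives for these shifts scaled each track by its own spread of genes. They therefore cannot show how far that spread shaped the shifts of *Jhe*. The shifts called for *Jhe* and *Jheh2* were kept under every alternative, except that *Jhe* was no longer higher from elav to nSyb neurons with 5 kb added. In that comparison 3 members were higher instead of 2 both with the unweighted median, which added *Jheh1* (1.11), and with 5 kb added, which added *Jheh1* (2.03) and *Jheh3* (1.13). Under the alternatives for gene values, 36 of the members' log2 ratios moved by less than 0.1 and 23 by more. Counted apart was 1 more, *Jheh3* in NSCs, which moved by more than 0.1 and turned its sign. The 23 also hold changes of sign: *Jheh1* in elav neurons went from 0.10 to -0.038 (unweighted median) and -0.14 (5 kb added). In NSCs *Jheh1*, near 0, changed sign to 0.024 (fragments of 200 to 2000 bp) with a move of less than 0.1. Members above 0 then numbered 3 in elav neurons under the first 2 settings, and 2 (5 kb added) or 4 (200 to 2000 bp) in NSCs. The causes were not tested.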
